A study of Mus musculus with 9 samples.

Results

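The comparison described here sets 3 pieces of a hepatocellular carcinoma against 3 pieces of the liver next to it, taken from the same male mouse. The members are 6 of the 9 arrays of the series, chosen by their titles, and the other 3 arrays, of wild-type liver, are given beside them as levels. The mouse was of the C57Bl6 strain, 12 months old, untreated, on regular chow and heterozygous for Sart1, written SART1+/- in the labels, and it developed the tumor without treatment. Tumor and adjacent pieces both carry that genotype. The wild-type pieces came from another animal of the same sex, strain and age, so genotype and animal differ together there. The labels record severe steatosis in the tumor and in the adjacent liver, cellular alteration in the adjacent liver, and mild steatosis in the wild-type liver. Each array measured the RNA of 1 piece. With 1 animal per tissue, every p-value below measures the spread between pieces of a single liver or a single tumor and not between animals. RNA came from whole tissue, so fewer cells of a type and less RNA per cell cannot be told apart.

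Hepatocytes carry out most of the liver's metabolism: they make plasma proteins and bile acids, oxidise drugs and steroids with cytochrome P450 enzymes, and build and export lipids. Hepatocellular carcinoma arises from these cells and often keeps part of this program while it regains genes of the fetal liver, such as Afp and Gpc3. Sart1 encodes a tri-snRNP protein of the spliceosome that is also called hypoxia-associated factor, because it acts on Hif1a and Epas1, the hypoxia-inducible factors.

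Values are log2 expression after RMA, a method that corrects background, gives all arrays the same distribution and merges the probes of a set into 1 value. A difference of 1 is therefore 2-fold. Of 18194 genes with a probe set of their own, 13888 were bright enough to be tested. A gene was called when limma's adjusted p was under 0.05 and the difference was at least 1 in size. Arrays of the same tissue correlated at r = 0.996 to 0.998 over genes and arrays of different tissue at 0.983 to 0.984, as a description of the arrays. Sart1 lay at 8.34, 8.39 and 8.38 in the adjacent pieces and at 7.77, 7.71 and 7.75 in the tumor pieces, without overlap, a difference of -0.63 (SE 0.05, adjusted p = 4.89e-06) that stays under the 2-fold limit. Wild-type liver lay at 8.35, 8.32 and 8.36, so with this probe set Sart1 was not lower in the adjacent pieces than in wild-type liver. A second, dimmer probe set of Sart1 gave -0.19, with means of 5.57 in adjacent liver, 5.38 in tumor and 5.71 in wild-type liver. The mean of both gave -0.41 (limma, adjusted p = 0.000241). The position of the probes with respect to the altered allele was not known here. The 3' minus 5' difference of the Actb quality probes, a measure of RNA integrity, ran from 0.819 to 0.907 in the adjacent pieces and from 0.539 to 0.694 in the tumor pieces, and the part of this gap in the results was not tested.

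Tumor and adjacent liver differed in 700 genes, which is 5.04% of those tested. In the tumor 292 genes (2.1%) were higher and 408 (2.94%) were lower. The adjusted p alone passed 6274 genes, or 45.2%, which shows how alike the pieces of each tissue were. In 53% of tested genes the 3 tumor values and the 3 adjacent values did not overlap, with the tumor above in 24.5% and below in 28.5%, and in 697 of the 700 called genes they did not overlap. A size of at least 2 (4-fold) was reached by 60 higher and 78 lower genes, and a size of at least 4 by 6 and 5. The gene just inside the limit on the higher side was Derl3 at 1.0007 and the one just outside was Pip4k2c at 0.9991. On the lower side they were Ggt6 at -1.0002 and Ifit2 at -0.999. The median difference over all tested genes was -0.01.

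The genes that gained most in the tumor encode secreted signals, adhesion molecules and enzymes. Cxcl3, a chemokine that attracts neutrophils, lay at 8.25, 7.84 and 7.21 in the tumor pieces and at 2.89, 2.96 and 3.06 in the adjacent pieces, a difference of 4.79 (SE 0.20, adjusted p = 6.41e-08). All 3 adjacent values were below the 40th percentile of their arrays, so the size of that gain depends on the background. Fst, the secreted activin antagonist follistatin, lay at 10.54, 10.66 and 10.49 in tumor, 5.72, 5.97 and 5.91 in adjacent liver against 5.68, 5.61 and 5.35 in wild-type liver, a difference of 4.70 (SE 0.10, adjusted p = 7.57e-10) between tumor and adjacent. The 3 tumor pieces were nearly equal, and the adjacent pieces sat at the wild-type level. Cdh17, the adhesion protein called liver-intestine cadherin, lay at 11.12, 11.10 and 10.49 against 6.69, 6.16 and 6.63, a difference of 4.41 (SE 0.24, adjusted p = 2.85e-07). Ocstamp, a membrane protein of osteoclast fusion, lay at 12.37, 12.41 and 12.15 against 7.76, 8.29 and 7.77, a difference of 4.37 (SE 0.16, adjusted p = 2.88e-08). Both genes stood in every tumor piece above every adjacent piece by a wide margin.

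Gpc3, the oncofetal cell-surface proteoglycan glypican 3, was at 5.46, 5.49 and 5.42 in the adjacent pieces and at 9.28, 9.33 and 10.51 in the tumor pieces, a difference of 4.25 (SE 0.26, adjusted p = 6.58e-07). Tumor piece 3 was the highest, and the adjacent pieces lay at the level of wild-type liver (5.68, 5.68 and 5.47). Galnt6, an enzyme that starts mucin-type sugar chains, rose by 4.12 (SE 0.13) and Csn3, kappa-casein, by 3.62 (SE 0.22). Another probe set of Galnt6 gave 4.08, and a probe set at background of each gave 0.095 and 0.0010. The other genes among the 20 largest gains rose by 2.95 to 3.79. They were Psrc1, a spindle protein and p53 target, the steroid dehydrogenase Hsd17b6, the mitochondrial arginase Arg2, the lectin-like receptor Klrb1b, 2010204K13Rik, the dioxin-inducible P450 Cyp1a1, the cell cycle inhibitor Cdkn2b, the trypsin inhibitor Spink1, the lipid droplet protein Cidec, the P450 Cyp2b9, Bex1, the interleukin 36 gene Il1f9 and the immunoglobulin heavy chain gene Ighm. The adjacent values of Arg2 and 2010204K13Rik were also all below the 40th percentile.

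**Figure D1:**
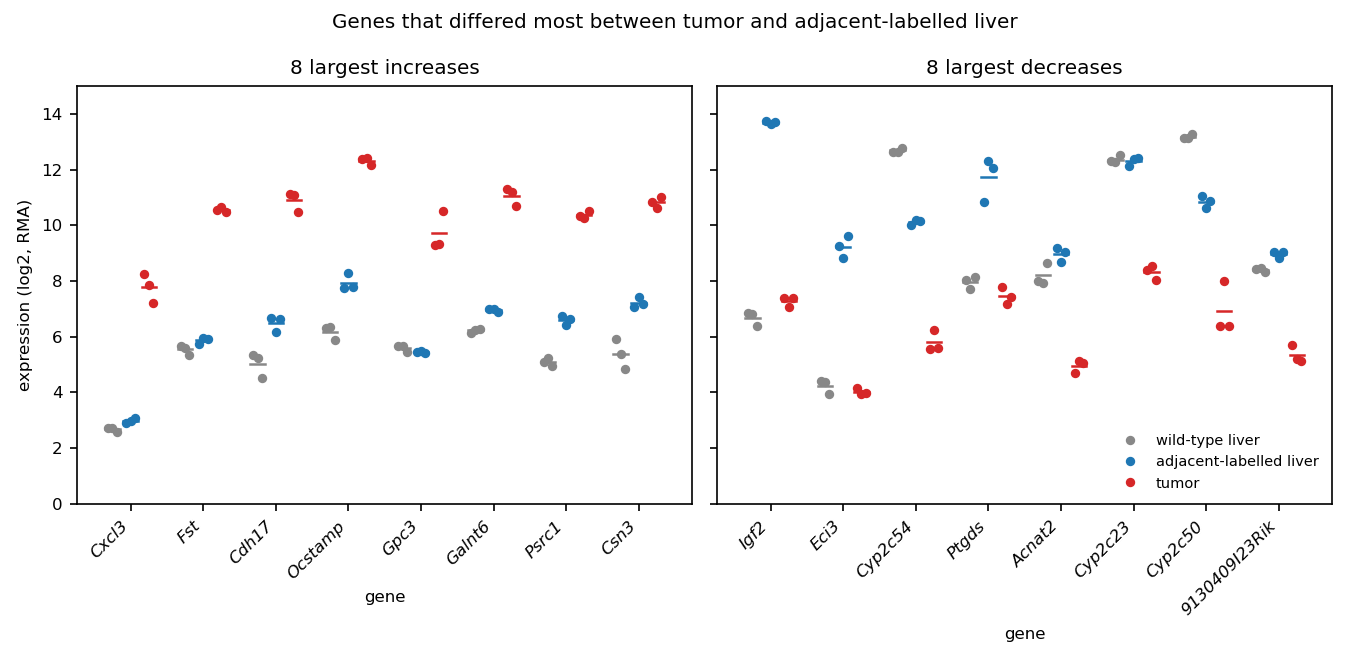
Expression (log2, RMA) of the 8 genes that rose most and the 8 that fell most, with 1 point per array and a bar at the mean of 3. For each of these genes the 3 tumor points (red) are separate from the 3 adjacent-labelled points (blue), while the wild-type points (grey) lie near the adjacent ones for Gpc3, Fst and Cyp2c23 and near the tumor ones for Igf2 and Eci3.

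The largest loss was of Igf2, the fetal growth factor insulin-like growth factor 2. It lay at 13.73, 13.62 and 13.69 in the adjacent pieces, 7.40, 7.05 and 7.40 in the tumor pieces and 6.84, 6.82 and 6.38 in wild-type liver, a difference of -6.39 (SE 0.13, adjusted p = 7.57e-10) between tumor and adjacent. The adjacent pieces were the high ones, and the tumor was within 1 of wild-type liver. Eci3, an isomerase of fatty acid oxidation, showed the same order, at 9.24, 8.81 and 9.61 in adjacent liver, 4.17, 3.94 and 3.97 in tumor and 4.41, 4.37 and 3.93 in wild-type liver (-5.20 (SE 0.19, adjusted p = 2.61e-08) for tumor minus adjacent). So did Ptgds, prostaglandin D2 synthase, at 10.83, 12.30 and 12.07, 7.78, 7.19 and 7.43 and 8.02, 7.70 and 8.14 (-4.26 (SE 0.32, adjusted p = 2.54e-06)). For these 3 genes the adjacent tissue stood apart from both other tissues. Sdr16c5, a retinol dehydrogenase, Slc39a5, a zinc transporter, and Siglecf, a sialic acid receptor, had adjacent means of 7.2, 9.83 and 6.20. Their tumor means were 3.64, 6.47 and 3.17 and their wild-type means 3.97, 6.87 and 3.08.

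Several other large losses were of genes that wild-type liver expressed as well. Cyp2c23, a P450 of arachidonic acid epoxidation, lay at 12.12, 12.39 and 12.40 in adjacent liver, 8.39, 8.54 and 8.05 in tumor and 12.30, 12.27 and 12.51 in wild-type liver (-3.98 (SE 0.13, adjusted p = 1.5e-08)). Dio1, the deiodinase that activates thyroid hormone, lay at 10.30, 10.18 and 10.29, 6.79, 7.0 and 6.93 and 10.65, 10.63 and 10.70 (-3.35 (SE 0.07, adjusted p = 7.57e-10)). Here the tumor was the tissue that stood apart. Cyp4f14, Acnat2, 9130409I23Rik and Tenm3 were called lower at -3.14, -4.02, -3.62 and -3.51, each from an adjacent mean near or above the wild-type mean. Slc3a1, a subunit of the cystine transporter, was at -3.39, Egflam, a matrix protein, at -3.44 and the mitochondrial ADP/ATP carrier Slc25a4 at -3.07. In the other bright probe sets of Slc25a4 wild-type liver lay below the tumor. The means there were 11.10 and 11.18 in adjacent liver, 7.73 and 8.23 in tumor and 6.62 and 7.29 in wild-type liver. The tumor values of Eci3, Acnat2, Sdr16c5 and Siglecf were all below the 40th percentile.

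Most genes of hepatocyte identity were not called, as over all genes, of which 5.04% were called. Of 18 hepatocyte transcription factors 1 was called higher and 1 lower (11.1% in all), and the list median was 0.01. Hnf4a, the master regulator of hepatocytes, lay at 12.33, 12.39 and 12.42 in adjacent liver against 12.33, 12.26 and 12.31 in tumor (-0.08 (SE 0.05, adjusted p = 0.289)), and the 2 sets overlapped. Cebpa was at 0.24 (SE 0.07, adjusted p = 0.0148) and Foxa2 at -0.05 (SE 0.07, adjusted p = 0.638). The pioneer factor Foxa1 rose by 1.21 (SE 0.11) to 8.46, where wild-type liver was at 8.53. Nr1i3, the xenobiotic receptor CAR, fell by 1.88 (SE 0.07, adjusted p = 2.61e-08), from 9.83, 10.01 and 10.04 to 8.06, 8.07 and 8.11. Of 17 hepatocyte plasma and metabolic markers only Bhmt, which recycles homocysteine to methionine, was called, at -1.72 (5.88%). Albumin (Alb) was at 14.49 ± 0.03 in adjacent liver and 14.45 ± 0.03 in tumor (SD, n = 3) and transthyretin (Ttr) at 14.004 ± 0.01 and 13.97 ± 0.01. Both lay near the highest intensity on any array (23383 before log2), where a loss may show less, and both weigh heavily in a sum of intensities. The markers of hepatocytes summed to 17.36 to 17.38 in the adjacent pieces and 17.29 to 17.32 in the tumor pieces, on a log2 scale of summed intensities. Wild-type liver lay above both, at 17.82 to 17.84.

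Drug and steroid metabolism lost many genes in the tumor. Of 41 tested cytochrome P450 genes 14 fell and 4 rose, with a median of -0.73, against 2.94% lower and 2.1% higher over all genes. Of the 41, 10 lie on chromosome 19 and 1 on chromosome 8, whose levels were lower as a whole. Without them 6 of 30 fell and 3 rose, with a median of -0.38. The Cyp2c subfamily on chromosome 19 oxidises drugs and fatty acids. Over the whole subfamily, which the list of 41 holds only in part, 9 of 10 tested members fell, with a median of -3.06. Cyp2c54 lay at 10.00, 10.21 and 10.15 in adjacent liver against 5.56, 6.23 and 5.60 in tumor (-4.32 (SE 0.15, adjusted p = 2.61e-08)). Wild-type liver lay above both, at 12.65, 12.65 and 12.78. Cyp2c50 lay at 11.05, 10.61 and 10.89 and 6.38, 8.0 and 6.37 (-3.93 (SE 0.35, adjusted p = 8.32e-06)), with tumor piece 2 clearly above the other tumor pieces. Cyp2c37 changed by -3.11, Cyp2c29 by -3.09, Cyp2c38 by -3.03 and Cyp2c55 by -2.99. Cyp2c68 and Cyp2c70 changed less, at -1.88 and -1.48, and Cyp2c39 at -0.63 stayed under the limit. Members of this subfamily are similar in sequence, so probes may share signal and the separate values are uncertain.

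The likeness of these genes extends to their promoters, which is why 2 of them are shown. The sequences are the 250 bases before the RefSeq start of each gene, from assembly GRCm38.p6, both on the plus strand, at chr19:40089429-40089678 and chr19:39992174-39992423. Capitals mark CCAAT or its reverse complement ATTGG, a box bound by the factor NF-Y.
Cyp2c50: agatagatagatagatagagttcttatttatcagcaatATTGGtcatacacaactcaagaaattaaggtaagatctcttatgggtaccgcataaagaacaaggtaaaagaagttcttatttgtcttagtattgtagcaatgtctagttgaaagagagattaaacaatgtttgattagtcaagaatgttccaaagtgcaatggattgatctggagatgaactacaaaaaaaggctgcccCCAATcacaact
Cyp2c37: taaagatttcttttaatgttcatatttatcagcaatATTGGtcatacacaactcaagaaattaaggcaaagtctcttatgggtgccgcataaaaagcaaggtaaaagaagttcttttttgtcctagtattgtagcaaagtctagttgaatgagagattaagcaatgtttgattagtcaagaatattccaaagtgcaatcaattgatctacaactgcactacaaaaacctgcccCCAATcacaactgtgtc
Aligned end to end, 84.3% of columns were identical (215 of 255). Both promoters hold 2 copies of CCAAT on either strand. Both genes were highest in wild-type liver, lower in adjacent liver and lowest in tumor, with Cyp2c37 means of 12.69, 9.64 and 6.53.

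Outside the Cyp2c genes the P450s went both ways. Cyp4f14, Cyp4a14, Cyp7b1 and Cyp7a1 were called lower at -3.14, -2.73, -2.86 and -1.97. Cyp1a1 rose from 6.41, 6.45 and 6.47 to 10.02, 9.05 and 9.59 (3.11 (SE 0.20, adjusted p = 9.36e-07)) and Cyp1a2, its liver-enriched neighbour, by 1.32 (SE 0.15), which brought it from 11.22 to 12.54, the wild-type level being 12.57. Both are targets of the aryl hydrocarbon receptor. Cyp2b9 rose by 3.03 and the steroid enzyme Cyp17a1 by 1.82. Cyp3a11, the main drug-metabolising P450 of the mouse, was at -0.82 (SE 0.07, adjusted p = 8.69e-06), under the limit. Cyp2e1, a pericentral P450, was at -0.74 (SE 0.48, adjusted p = 0.248).

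Phase II enzymes, which conjugate the products of the P450s, and transporters, which move them, lost members too. Of 34 phase II enzymes 8 fell and 2 rose (median -0.47). The sulfotransferase Sult1c2 fell from 9.43, 9.31 and 9.39 to 6.33, 6.46 and 6.58 (-2.92 (SE 0.07, adjusted p = 3.11e-09)), and the glucuronosyltransferase Ugt2a3 and the sulfotransferase Sult1b1 were called lower at -2.09 and -1.79. The glutathione transferases Gstt3 and Gstt2 rose by 1.78 and 1.3. Of 23 liver transporters 8 fell and 0 rose (median -0.49). Slc22a7, an organic anion transporter, fell from 9.75, 9.83 and 9.52 to 6.77, 6.78 and 6.96 (-2.86 (SE 0.10, adjusted p = 2.27e-08)). Slc22a30, Slco2b1 and Slco1b2 were called lower at -2.26, -2.15 and -2.14 (for Slco2b1 -1.63 and 0.23 with its other probe sets), and for Slco1b2 tumor piece 1 (8.89) stood above the others (7.74 and 7.40).

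Bile acid genes lay mostly lower in tumor. Of 18 tested 5 fell and 0 rose, the median was -0.66, and in 15 of 18 every tumor value lay under every adjacent value, where 28.5% of all genes did. Cyp7a1, the rate-limiting enzyme of bile acid synthesis, lay at 8.64, 8.06 and 8.81 in adjacent liver against 6.36, 7.08 and 6.14 in tumor (-1.97 (SE 0.24, adjusted p = 7.44e-05)). Cyp7b1, of the alternative pathway, lay at 11.07, 10.96 and 11.06 and 8.40, 8.40 and 7.72 (-2.86 (SE 0.16, adjusted p = 4.05e-07)). The conjugating enzyme Baat, the export pump Abcb11 and the uptake carrier Slc10a1 were called lower at -1.31, -1.24 and -1.39. Klb and Fgfr4, the co-receptor and receptor through which FGF15 restrains Cyp7a1, were at -0.99 and -0.87, under the limit. Nr0b2, which encodes the repressor SHP, was at -0.02 (SE 0.08, adjusted p = 0.89). Cyp8b1, the enzyme for cholic acid, was at 7.02 in adjacent liver and 6.48 in tumor, both far from the wild-type 12.28.

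Sex-biased genes moved in both directions. Of 14 male-biased liver genes 6 fell and 2 rose, with a median of -0.85 that became -0.535 without adjacent piece 1 and -1.49 without adjacent piece 2. Among them were the complement gene C6 at -2.05, the peroxisomal hydrolase Nudt7 at -1.64 and C8b at -1.5. Egfr, the EGF receptor, and Susd4, a complement inhibitor, rose by 1.25 and 1.73. Of 11 female-biased genes 3 rose and 3 fell, with Cyp2b9 and Cyp17a1 among the first and Hao2 (-2.62), Acot3 (-2.39) and Cyp4a14 among the second. Their median was -0.33, and the tumor lay below without overlap in 7 and above in 3, against 28.5% and 24.5% of all genes. The losses depended on the probe set rule. With the mean of probe sets 5 fell and the median was -0.92, and with the most variable probe set 7 fell and it was -1.22. Slco1a1, Hsd3b5 and Elovl3, strongly male-biased in mice, were far under wild-type liver in both tissues. Their wild-type means were 12.02, 12.22 and 12.74, their adjacent means 6.32, 5.70 and 6.47 and their tumor means 5.75, 5.13 and 5.52. Of 10 genes of the growth hormone axis, which sets this bias, 2 fell and 0 rose. Igfals, which stabilises circulating IGF-1, changed by -2.32 and Socs2, a STAT5 target, by -1.39, while Ghr was at -0.45, Stat5b at -0.12 and Igf1 at -0.85. The other probe sets of Igf1 gave -1.46, -1.38 and -0.88. With the mean of probe sets Igf1 was called, at -1.14, and Socs2 was not, at -0.59.

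**Figure D2:**
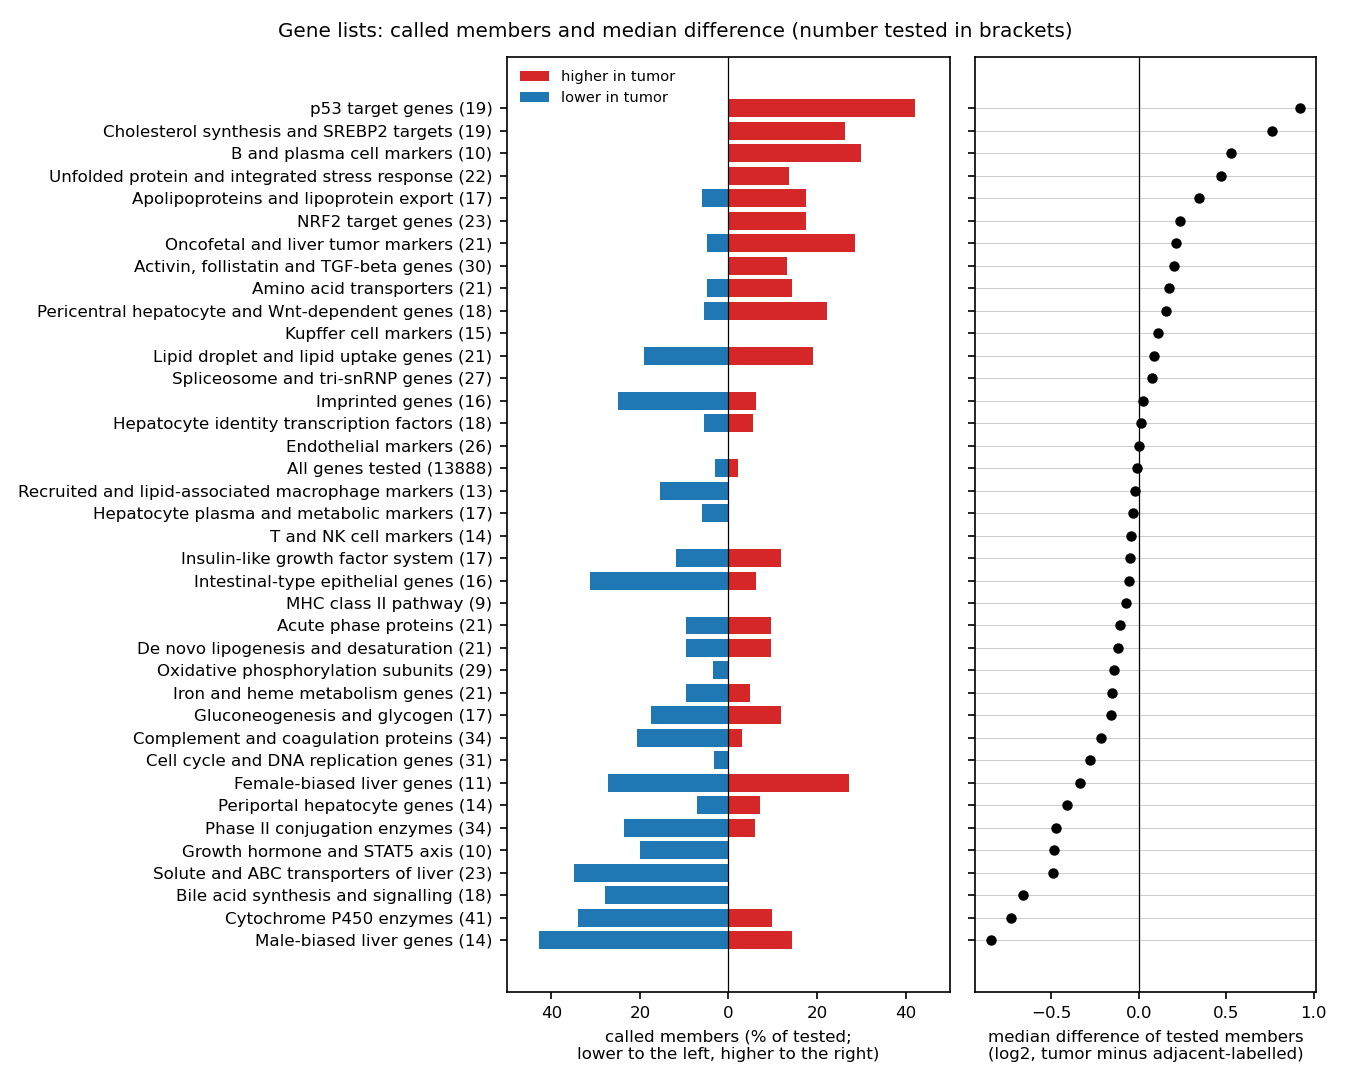
Left, share of tested members called higher (red) or lower (blue) in tumor, in percent, for 37 gene lists and for all genes tested; right, the median log2 difference of the tested members. p53 targets and cholesterol genes lie at the top, with medians of 0.92 and 0.76, and male-biased and P450 genes at the bottom, with medians of -0.85 and -0.73.

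Cholesterol synthesis ran the other way. Of 19 tested genes of the pathway and its regulator SREBP2, 5 rose and 0 fell, the median was 0.76, and in 18 of 19 every tumor value lay above every adjacent value, where 24.5% of all genes did. Lss, lanosterol synthase, lay at 8.27, 8.28 and 8.35 in adjacent liver against 10.78, 10.67 and 10.92 in tumor (2.49 (SE 0.11, adjusted p = 8.58e-08)), with wild-type liver at 10.26, 10.24 and 9.83. Nsdhl, a sterol dehydrogenase, lay at 9.73, 10.00 and 9.72 and 11.24, 11.005 and 11.29 (1.36 (SE 0.12, adjusted p = 6.33e-06)). Sqle, which oxidises squalene, rose by 1.17, the farnesyl diphosphate synthase Fdps by 1.11 and the last-step reductase Dhcr7 by 1.02. Wild-type means of Lss, Nsdhl and Dhcr7 (10.11, 11.22 and 10.98) were nearer to the tumor means (10.79, 11.18 and 11.20) than to the adjacent ones (8.30, 9.81 and 10.18). Srebf2 itself, which encodes the regulator, was at 0.25 (SE 0.07, adjusted p = 0.0135). Without the genes on chromosomes 8 and 10, whose levels shifted as a whole, 4 of 16 rose and the median was 0.77. The other probe sets of Lss gave 2.98 and 0.59. The call of Dhcr7 ends without adjacent piece 1 or 2 or tumor piece 3, at 0.965 to 0.996.

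Because nearly all of these genes lay higher in tumor, their promoters were searched on both strands for CCAAT and for TCACNCCAC, the sterol regulatory element as first described in the LDL receptor gene. The 250 bases before the start were at hand for 15 of the 19 genes. All 15 held CCAAT, which 39.5% of tested genes with a promoter did, and 1, Hmgcs1, held TCACNCCAC, which 1.27% did. The promoters of Lss and Nsdhl, the 2 genes that rose most, and of Hmgcs1, HMG-CoA synthase, which carries both motifs, are shown from RefSeq, assembly GRCm38.p6, at chr10:76531355-76531604, chrX:72918271-72918520 and chr13:119690101-119690350, all on the plus strand. Capitals mark the motifs on either strand, and no copies of different motifs overlap.
Lss: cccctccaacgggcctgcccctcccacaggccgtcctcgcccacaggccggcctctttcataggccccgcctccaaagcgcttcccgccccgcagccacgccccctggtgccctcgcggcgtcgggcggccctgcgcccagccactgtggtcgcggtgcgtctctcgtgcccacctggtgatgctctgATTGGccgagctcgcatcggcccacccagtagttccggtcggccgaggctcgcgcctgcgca
Nsdhl: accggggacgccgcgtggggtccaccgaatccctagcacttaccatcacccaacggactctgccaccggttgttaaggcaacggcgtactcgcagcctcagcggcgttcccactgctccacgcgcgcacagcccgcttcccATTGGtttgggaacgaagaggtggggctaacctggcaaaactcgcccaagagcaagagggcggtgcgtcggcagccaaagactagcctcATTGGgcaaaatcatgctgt
Hmgcs1: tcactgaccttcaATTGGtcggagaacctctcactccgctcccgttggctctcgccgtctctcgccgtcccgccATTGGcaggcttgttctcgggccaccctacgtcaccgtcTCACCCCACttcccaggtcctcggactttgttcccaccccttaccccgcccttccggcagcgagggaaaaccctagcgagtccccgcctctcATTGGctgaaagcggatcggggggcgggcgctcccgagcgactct
Lss holds 1 CCAAT, Nsdhl 2 and Hmgcs1 3, all in the form ATTGG. In Hmgcs1 the element TCACCCCAC lies between the second and the third. Hmgcs1 was at 12.43, 12.43 and 12.56 in adjacent liver against 13.07, 12.93 and 13.05 in tumor (0.54 (SE 0.09, adjusted p = 0.000746)), without overlap but under the limit. These matches describe the sequences and carry no measure of binding.

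**Figure D3:**
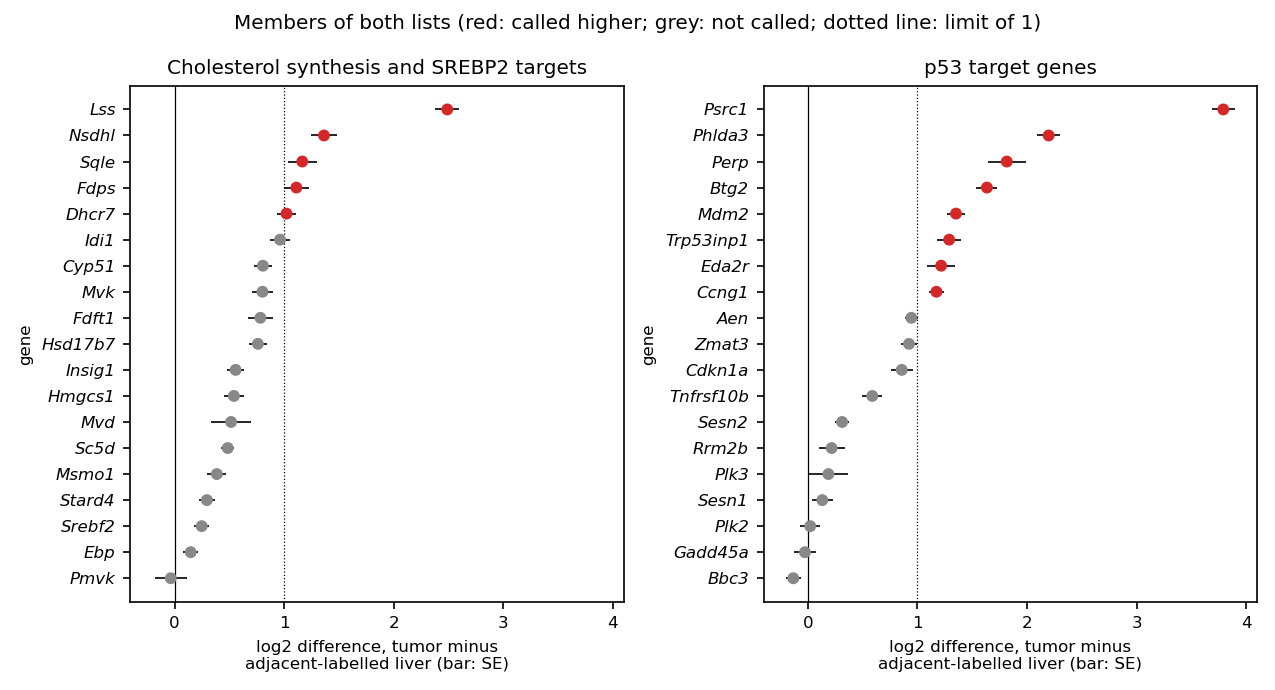
Log2 difference (tumor minus adjacent-labelled liver, point) and its SE (bar) for the 19 tested cholesterol genes and the 19 tested p53 targets, red where called. In the cholesterol list Pmvk, at -0.03, is the only point left of 0, and in the p53 list Psrc1 at 3.79 and Phlda3 at 2.20 lie furthest right.

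Other lipid genes were divided. Of 21 genes of fatty acid synthesis and desaturation 2 rose and 2 fell (median -0.12), with the elongase Elovl2 at 1.94 (SE 0.08, adjusted p = 4.05e-08) and Acacb, the acetyl-CoA carboxylase that controls fatty acid oxidation, at -1.49 (SE 0.19, adjusted p = 0.000118). Fasn, fatty acid synthase, was at -0.12 (SE 0.16, adjusted p = 0.585) and its regulator Srebf1 at -0.12 (SE 0.09, adjusted p = 0.318). Of 21 lipid droplet and uptake genes 4 rose and 4 fell. Cidec, which enlarges droplets, rose from 5.55, 4.25 and 5.02 to 8.26, 8.04 and 7.70 (3.06 (SE 0.35, adjusted p = 5.09e-05)), whereas Plin5, which ties droplets to mitochondria, changed by -1.79 and Lpl, lipoprotein lipase, by -1.26. Of 17 apolipoprotein and export genes 3 rose and 1, Lcat, fell, and 12 had the tumor above without overlap, as 24.5% of all genes did. Apoa4 rose from 11.62, 11.33 and 11.85 to 14.003, 14.05 and 14.02 (2.42 (SE 0.11, adjusted p = 9.51e-08)), Apoa5, which promotes triglyceride clearance, by 1.97 and Apoc2, the cofactor of lipoprotein lipase, by 1.14. Apob and Apoa1 were at 0.25 and 0.14. For Apob another bright probe set gave 1.92, and with the mean of probe sets Apob was called, at 1.08, so its change rests on the probe set. Of 19 genes of fatty acid oxidation 1 rose (Vnn1) and 1 fell (Acot1), with Cpt1a at -0.05, and of 29 subunits of oxidative phosphorylation only Ndufv1 was called, at -1.14.

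Carbohydrate and amino acid metabolism changed in single steps. Slc2a2, the glucose carrier GLUT2, fell from 11.98, 11.68 and 11.87 to 8.76, 9.10 and 9.86 (-2.61 (SE 0.22, adjusted p = 4.99e-06)), and the glycogen phosphatase subunit Ppp1r3b and the glucokinase regulator Gckr were called lower at -1.46 and -1.12. Pck1, the entry enzyme of gluconeogenesis, and Gys2, liver glycogen synthase, rose by 1.51 and 1.2, so that of 17 genes of the group 2 rose and 3 fell. Of 16 glycolysis genes 1 rose, Pkm, the pyruvate kinase of proliferating and fetal cells, from 8.43, 8.65 and 8.52 to 10.23, 10.13 and 10.10 (1.62 (SE 0.08, adjusted p = 1.24e-07)). Of 29 genes of the urea cycle and amino acid breakdown Agxt rose (1.39) and Prodh fell (-1.68). Of 16 serine and one-carbon enzymes Bhmt alone fell and 0 rose. Of 21 amino acid transporters 3 rose and 1 fell: Slc7a11, which imports cystine, from 7.24, 6.53 and 6.84 to 9.93, 9.81 and 9.53 (2.89 (SE 0.19, adjusted p = 1.15e-06)), Slc1a4, a carrier of neutral amino acids, by 2.45, Slc43a1 by 1.22, and Slc3a1 in the other direction.

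Many targets of the tumor suppressor p53 were higher in the tumor. Of 19 tested 8 rose and 0 fell, with a median of 0.92. The tumor lay above without overlap in 13, where 24.5% of all genes did. Psrc1 lay at 6.74, 6.41 and 6.62 in adjacent liver against 10.34, 10.28 and 10.52 in tumor (3.79 (SE 0.10, adjusted p = 5.37e-09)). Phlda3, which restrains AKT, lay at 7.86, 7.75 and 7.59 and 10.02, 9.87 and 9.91 (2.20 (SE 0.11, adjusted p = 1.52e-07)). Mdm2, the ligase that degrades p53, lay at 8.87, 8.64 and 8.79 and 10.00, 10.26 and 10.09 (1.35 (SE 0.08, adjusted p = 5.78e-07)). In all 3 genes the adjacent pieces were low and the tumor pieces alike. Btg2 and Ccng1 rose by 1.63 and 1.17, while the cell cycle inhibitor Cdkn1a, the best-known p53 target, was at 0.86 (SE 0.10, adjusted p = 6.31e-05), under the limit. The pro-apoptotic Bbc3 was at -0.13 (SE 0.07, adjusted p = 0.131) and Gadd45a at -0.03 (SE 0.10, adjusted p = 0.858). Of the 19 genes 3 lie on chromosome 10, whose genes were higher as a whole, and without them 6 of 16 rose, with a median of 0.89.

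Of 31 listed genes of the cell cycle and DNA replication limma called 0 higher, or 2 with the adjusted p alone and 1 with the most variable probe set. The helicase subunit Mcm6 fell (-1.19), and the list median was -0.28. In 10 of the 31 the tumor lay below without overlap, near the share of 28.5% over all genes. It lay above in 2, where 24.5% of all genes did. The proliferation marker Mki67 lay at 8.52, 7.52 and 8.35 in adjacent liver against 7.93, 7.73 and 7.61 in tumor (-0.37 (SE 0.21, adjusted p = 0.186)), and wild-type liver at 5.57, 5.72 and 5.53. Mki67 was thus above wild-type liver in both tissues and overlapped between them. Cdk1 was at 0.45 (SE 0.16, adjusted p = 0.0422), Top2a at -0.39 (SE 0.17, adjusted p = 0.0832) and Ccnd1, cyclin D1, at -0.28 (SE 0.10, adjusted p = 0.0405). Cdkn2b, which encodes the CDK4 and CDK6 inhibitor p15, lay at 7.60, 7.89 and 7.77 in adjacent liver, 10.88, 10.83 and 10.80 in tumor and 6.53, 6.27 and 6.19 in wild-type liver (3.09 (SE 0.10, adjusted p = 1.5e-08)).

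Stress responses rose in part. Of 22 genes that answer unfolded proteins or other integrated stress, 3 rose and 0 fell (median 0.47). In 16 the tumor lay above without overlap, where 24.5% of all genes did. Trib3, a pseudokinase induced by ATF4, rose from 8.88, 9.09 and 9.01 to 11.08, 11.07 and 10.80 (1.99 (SE 0.09, adjusted p = 8.4e-08)), and the endoplasmic reticulum chaperones Pdia6 and Hsp90b1 by 1.42 and 1.12, or by 0.56 and 0.72 with another probe set. Of 23 genes under NRF2, a regulator of oxidative stress defence, 4 rose and 0 fell: Slc7a11, Akr1b8 (1.94), Srxn1 (1.5) and Cbr3 (1.15). Nqo1, often taken as the sentinel of NRF2, was at 8.98, 8.81 and 8.95 in adjacent liver against 8.93, 9.48 and 9.07 in tumor (0.25 (SE 0.13, adjusted p = 0.142)), with wild-type liver at 5.95, 6.17 and 6.16. Both tissues were thus high.

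Fetal and tumor markers separated the carcinoma from its surroundings only in part. Of 21 tested 6 rose and 1 fell (median 0.21, or 0.493 with the mean of probe sets and 0.65 with the most variable one). Afp, alpha-fetoprotein, lay at 9.10, 8.87 and 9.31 in adjacent liver against 11.96, 11.75 and 12.08 in tumor (2.83 (SE 0.19, adjusted p = 1.08e-06)), while wild-type liver was at 5.98, 5.93 and 5.23, so the tissue that the design text calls uninvolved was itself above wild-type liver. The other probe sets of Afp gave 2.47, 2.38, 0.64 and -0.10. Spink1 and Bex1, both raised in human liver cancer, rose by 3.08 and 3.02. Spink1 was also above wild-type liver in the adjacent pieces, at 8.71, 7.92 and 8.59 against 5.70, 5.69 and 5.58. Dlk1, a fetal liver marker, was at 0.97 (SE 0.43, adjusted p = 0.0928), and the progenitor markers Epcam and Sox9 at 0.15 and -0.26. The other probe set of Epcam gave 1.03, and those of Sox9 gave -0.35 and, at background, 0.03.

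The promoter of Gpc3 is shown because the gene separated tumor from both other tissues so fully. It is the 250 bases before the start on the minus strand, chrX:52613975-52614224 of GRCm38.p6, from RefSeq, with the single CCAAT in capitals.
Gpc3: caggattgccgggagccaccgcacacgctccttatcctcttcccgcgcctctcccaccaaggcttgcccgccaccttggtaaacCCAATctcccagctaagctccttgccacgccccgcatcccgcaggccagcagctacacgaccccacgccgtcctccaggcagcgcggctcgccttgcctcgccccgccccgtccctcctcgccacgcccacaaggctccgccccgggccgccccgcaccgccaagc
No TCACNCCAC was found in this window.

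Imprinted genes and the insulin-like growth factors shared the loss of Igf2. Of 16 imprinted genes 4 fell and 1 rose (median 0.02). Meg3, a non-coding RNA of the Dlk1 locus, lay at 11.40, 11.51 and 11.48 in adjacent liver against 9.75, 10.04 and 10.53 in tumor (-1.36 (SE 0.21, adjusted p = 0.000364)), and its neighbour Rian was called at -1.1, and of the 10 other probe sets of Meg3 the brightest gave -1.24 and -1.22 and the rest -0.85 to 0.15. Sgce fell by 1.89 and Igf2r, which clears IGF-2, rose by 1.14. Of 17 genes of the growth factor system 2 rose and 2 fell. Igfbp1, a binding protein induced by fasting, lay at 11.05, 11.23 and 11.04 and 13.57, 13.57 and 13.62 (2.48 (SE 0.09, adjusted p = 2.41e-08)), opposite to Igf2 and Igfals.

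Genes of intestinal-type epithelium were divided. Of 16 tested 5 fell and 1, Cdh17, rose, with a median of -0.06. Vil1, the microvillus protein villin, lay at 11.27, 11.41 and 11.51 in adjacent liver, 8.64, 8.17 and 7.43 in tumor and 4.32, 4.59 and 3.95 in wild-type liver (-3.32 (SE 0.26, adjusted p = 3.1e-06)). The junction gene Cldn7 lay at 10.65, 10.52 and 10.82, 9.13, 9.02 and 9.34 and 5.51, 5.30 and 5.26 (-1.5 (SE 0.11, adjusted p = 1.71e-06)). Both were highest in the tissue labelled adjacent and above wild-type liver in tumor. Apela, a ligand of the apelin receptor, fell by 1.39, whereas the trefoil factor Tff3 was at 1.00, just under the limit, and the intestinal regulator Cdx2 at 0.13 (SE 0.10, adjusted p = 0.322). The 16 bile duct and progenitor markers had 1 lower gene, Cldn7, and 0 higher, with Krt19 at 0.44 (SE 0.17, adjusted p = 0.0529) and Krt7 at -0.13 (SE 0.21, adjusted p = 0.671).

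Signalling genes were led by follistatin. Of 30 genes of the activin, follistatin and TGF-beta families 4 rose and 0 fell. The activin receptor Acvr1b lay at 7.56, 7.82 and 7.62 in adjacent liver against 9.85, 9.87 and 9.81 in tumor (2.18 (SE 0.08, adjusted p = 2.61e-08)), or 0.33 with another probe set, and Id1, a target of BMP signalling, rose by 1.81 (SE 0.09). Hamp, the iron hormone hepcidin, was called at 2.09 (SE 0.72, adjusted p = 0.0365), with adjacent values of 10.87, 7.01 and 9.23 and tumor values of 11.12, 10.68 and 11.57. Its call ends without any 1 of the 6 pieces other than adjacent piece 1, at an adjusted p of 0.0556 to 0.109. Of 13 genes of the EGF receptor family, MET and their ligands Egfr rose (1.25), with 1.06 to 1.09 in 3 of its other probe sets and 0.14 to 0.63 in the remaining 3, and Met was at 0.11. Among the hypoxia-inducible factors and their regulators 1 of 13 was called, Egln3, an oxygen-sensing hydroxylase, which rose by 1.98. Hif1a was at 0.23 (SE 0.08, adjusted p = 0.038) and Epas1, the gene of the HIF-2 alpha subunit, at 0.03 (SE 0.07, adjusted p = 0.788). Their other probe sets gave 0.42, 0.35 and, at background, 0.16 for Hif1a and 0.42 for Epas1, all under the limit. Of 17 other hypoxia response genes Egln3 and Ddit4 (1.62) rose and 0 fell. Vegfa was at 0.20 (SE 0.08, adjusted p = 0.071), or 0.43 with another probe set, and Car9 at 0.02 (SE 0.07, adjusted p = 0.859). Limma called 0 of 27 spliceosome genes, 16 of which had an unadjusted p under 0.05, and the tri-snRNP core gene Prpf8 was at -0.34 (SE 0.06, adjusted p = 0.00154).

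Zonal genes gave no single direction. Of 18 pericentral and Wnt-dependent genes 4 rose and 1, Rgn, fell (-1.32), a call that ends without adjacent piece 1 or 3 or tumor piece 2 or 3. Rnf43, a feedback inhibitor of Wnt, lay at 5.84, 5.10 and 5.72 in adjacent liver against 7.19, 6.79 and 6.76 in tumor (1.36 (SE 0.18, adjusted p = 0.000111)). Glul, the marker of hepatocytes next to the central vein, was at -0.65 (SE 0.43, adjusted p = 0.253), Axin2 at 0.31 (SE 0.19, adjusted p = 0.229) and Lgr5 at 0.57 (SE 0.26, adjusted p = 0.103). Of 14 periportal genes Pck1 rose and Etnppl fell (-1.74), with Cyp2f2 at -0.80 and Cps1 at -0.79.

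Among secreted proteins of the liver more genes fell than rose. Of 34 complement and coagulation genes 7 fell and 1 rose (median -0.22). The terminal complement genes C6, C8b and C9 were called lower at -2.05, -1.5 and -1.34 and the lectin Mbl1 at -1.43, while the clotting factor F11 rose by 1.53. F2, prothrombin, was at 0.00 (SE 0.05, adjusted p = 0.971). Masp1 fell by 1.22 with its brightest probe set, but 3 others gave 0.31 to 0.56 in the other direction and another, at background, -0.39, so its change rests on the probe set. Of 21 acute phase genes 2 rose and 2 fell: Serpina3n rose by 1.78 (SE 0.08), Crp, C-reactive protein, changed by -1.56 and Apcs by -1.03, with Hamp as the other increase. Of 21 iron and heme genes Slc11a2 and Tfrc, the iron importer and the transferrin receptor, were called lower at -1.1 and -1.02. Of 18 clock genes Npas2 fell by 1.58 and Rora rose by 1.04.

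Among markers of other cell types, several of those of B and plasma cells were higher in the tumor. Of 10 tested B and plasma cell markers 3 rose and 0 fell (median 0.52). In 8 the tumor lay above without overlap, where 24.5% of all genes did, and the lowest member, Sdc1, was at -0.002. Ighm lay at 8.54, 8.51 and 8.49 in adjacent liver, 11.07, 11.78 and 11.53 in tumor and 10.90, 11.12 and 9.73 in wild-type liver (2.95 (SE 0.30, adjusted p = 2.33e-05)). Jchain, which joins secreted immunoglobulins, lay at 7.65, 7.85 and 7.85 and 9.63, 9.64 and 10.20 (2.04 (SE 0.14, adjusted p = 1.09e-06)), and Derl3, an endoplasmic reticulum protein of secretory cells, rose by 1.00. Of 10 other probe sets of Ighm, 6 also gave over 1 and 4 gave -0.16 to 0.32. The list summed to 12.22 to 12.32 in the adjacent pieces, 12.89 to 13.15 in the tumor pieces and 12.33 to 12.59 in wild-type liver. Cd79a, of the B cell receptor, was at 0.60 (SE 0.14, adjusted p = 0.00513). The call of Derl3 ends under median centring or cyclic loess and without adjacent piece 1 or tumor piece 1.

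Limma called 0 of 15 Kupffer cell markers, 0 of 15 neutrophil and S100 genes, 0 of 14 T and NK cell markers and 0 of 26 endothelial markers, and 4, 4, 1 and 1 of them had an unadjusted p under 0.05. Summed levels overlapped between adjacent and tumor pieces for Kupffer cells (14.10 to 14.56 and 14.21 to 14.48) and endothelial cells (13.38 to 13.60 and 13.46 to 13.75). Those of neutrophil and S100 genes were 12.07 to 12.22 in adjacent liver and 12.46 to 12.50 in tumor. Cd3e was at -0.04 (SE 0.10, adjusted p = 0.77), Clec4f, a Kupffer cell lectin, at 0.18 (SE 0.28, adjusted p = 0.65) and Stab2, a sinusoidal endothelial receptor, at 0.04 (SE 0.18, adjusted p = 0.885). Of 13 markers of recruited macrophages 2 (15.4%) fell, Lpl and Atp6v0d2 (-1.24), and Trem2 was at -0.02 (SE 0.15, adjusted p = 0.934). Of 23 stellate cell and myofibroblast markers 2 (8.7%) rose, Reln (1.32) and Ecm1 (1.04), and 0 fell. Of 22 collagen genes Col4a3 rose (1.88) and Col4a1 fell (-1.08), with Col1a1 at -0.49 (SE 0.20, adjusted p = 0.0707). Of 23 proteases and inhibitors of the matrix Timp4 fell (-2.32) and 0 rose.

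Apart from Cxcl3 and Il1f9, named above, few immune signals passed the 2-fold limit. Limma called 0 of 26 listed chemokine and receptor genes, 9 of which had an unadjusted p under 0.05. Cxcl1 was at 0.77 (SE 0.08, adjusted p = 1.71e-05) and Ccl5, a chemokine for T cells, at 0.04 (SE 0.14, adjusted p = 0.845). The other probe sets of Cxcl1 gave 1.07 and 0.93, and with the most variable probe set Cxcl1 was called, at 1.07. Limma called 0 of 9 MHC class II genes and 0 of 14 MHC class I and immunoproteasome genes, while 3 and 10 of them had an unadjusted p under 0.05. Of 22 interferon-stimulated genes Oasl2 and Bst2 were called lower at -1.45 and -1.1, or 9.09% against 2.94% of all genes. The adipocyte list had Cidec higher and Car3 lower, and limma called 0 of 3 erythroid and 0 of 3 exocrine pancreas genes, with an unadjusted p under 0.05 in 2 and 1. The summed adipocyte markers ran from 13.32 to 13.37 in the adjacent pieces and from 11.42 to 11.76 in the tumor pieces, and those of exocrine pancreas from 10.55 to 10.66 and from 11.29 to 11.53, both without overlap. Their part in the results was not tested.

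The tumor pieces were alike for most genes, with a median SD of 0.088 per gene against 0.083 among the adjacent pieces. Among called genes the spread was widest for Sult2a2, a sulfotransferase, at 5.32, 5.37 and 7.48 in the tumor pieces, and for Mep1b, a meprin protease, at 7.30, 5.93 and 8.20. Piece 3 was the highest for both. It was also the highest for Mcts2 (5.79, 5.23 and 7.14) and Calml4 (6.32, 6.36 and 7.88), and for Gpc3. Piece 1 was the highest for Lect2 (10.99, 9.47 and 10.26) and piece 3 the lowest for Cyp2c38 (6.65, 6.44 and 5.39). Even so the tumor values of each of these genes stayed on their side of the adjacent values, which were 8.95, 8.43 and 9.03 for Sult2a2 and 5.40, 5.38 and 5.40 for Mep1b.

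Differences also followed the chromosomes. The genes of chromosome 8 had a median difference of -0.35, with 3 called higher and 55 lower of 734, and 80.8% of them were below 0. Those of chromosome 19 had a median of -0.34, with 8 higher and 48 lower of 505. Those of chromosome 10 had a median of 0.25, with 40 higher and 6 lower of 666. Against the mean of the adjacent pieces, the medians of tumor pieces 1, 2 and 3 were -0.38, -0.37 and -0.28 on chromosome 8, -0.38, -0.41 and -0.27 on chromosome 19, and 0.27, 0.24 and 0.29 on chromosome 10. The adjacent pieces themselves lay between -0.06 and 0.04 on these chromosomes, so the tissues did not overlap, and 0.1 is the smallest p that an exact permutation test of 3 against 3 can give. Chromosome 18 had a median of -0.20, chromosome 12 of 0.15 and chromosome 1 of -0.14, while chromosome 11, with 1168 genes, was at -0.01. Against wild-type liver, chromosomes 18, 12 and 1 had medians of 0.03, 0.02 and 0.06 in tumor. In the adjacent pieces they were 0.27, -0.15 and 0.28, so there the adjacent pieces were the tissue further from wild-type liver.

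**Figure D4:**
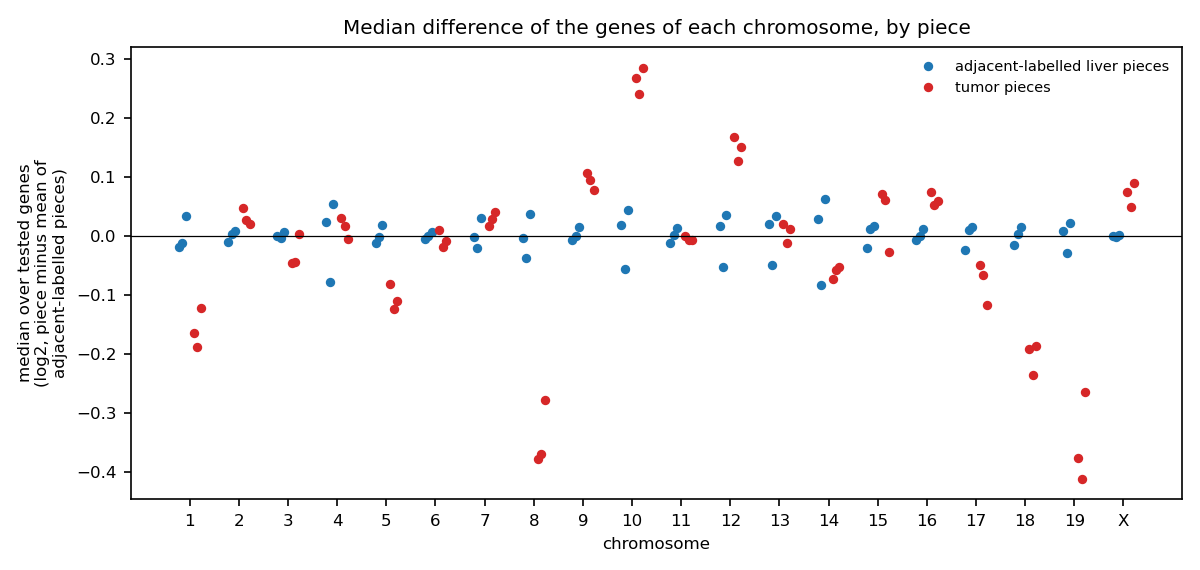
Median over the tested genes of each chromosome of the log2 difference between 1 piece and the mean of the adjacent-labelled pieces, for the 3 adjacent-labelled (blue) and 3 tumor (red) pieces. The tumor pieces lie furthest below 0 on chromosomes 8 and 19, at -0.27 to -0.41, and furthest above on chromosome 10, at 0.24 to 0.29.

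The shift ran along most of each of chromosomes 8, 19 and 10 and was not set by a few genes. In a running median of 41 neighbouring genes, 92.1% of windows on chromosome 8 and 96.3% on chromosome 19 lay below -0.2, and 67.1% on chromosome 10 lay above 0.2, against 0 in either direction on chromosome 11. The highest window was at -0.001 on chromosome 8 and -0.12 on chromosome 19, and the lowest on chromosome 10 was at 0.06. Without its 10 tested Cyp2c genes chromosome 19 had a median of -0.33. Sart1 lies on chromosome 19, and the 50 tested genes nearest to it had a median of -0.43, of which 12 lay below Sart1. Lss and Mdm2 lie on chromosome 10. Chromosomes 8 and 19 together hold 8.92% of tested genes, 25.2% of the genes called lower (103 of 408) and 3.77% of those called higher. On the chromosomes other than 8, 10 and 19, 2.01% of genes were higher and 2.5% lower. Against wild-type liver, the tumor had medians of -0.20 on chromosome 8, -0.12 on chromosome 19 and 0.08 on chromosome 10, and the adjacent pieces of 0.06, 0.27 and -0.19. On chromosomes 19 and 10 the adjacent pieces were thus further from wild-type liver than the tumor was, and on chromosome 8 the tumor was further. DNA copy number was not measured.

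**Figure D5:**
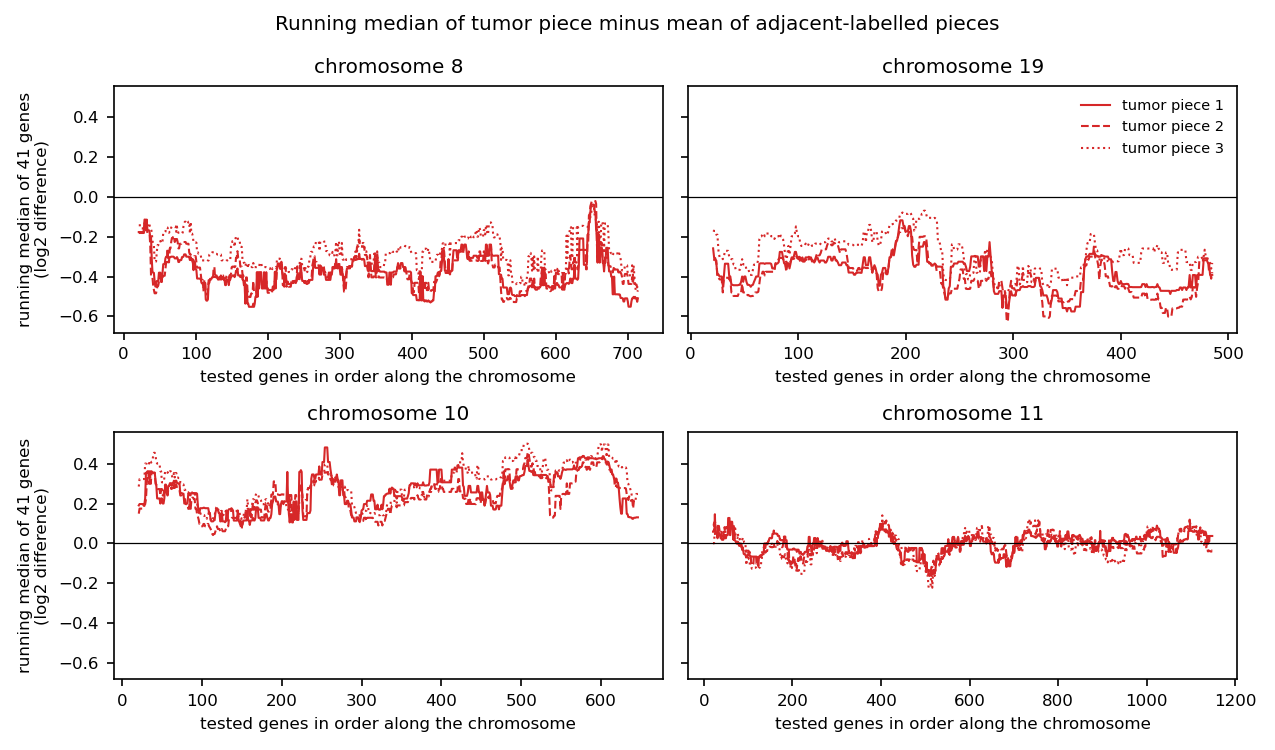
Running median over 41 tested genes, in order along the chromosome, of the log2 difference between each tumor piece and the mean of the adjacent-labelled pieces, for chromosomes 8, 19, 10 and, as an unshifted one, 11. The 3 lines lie below 0 along most of chromosomes 8 and 19 and above 0 along most of chromosome 10.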

How the data were processed

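RNA from 9 pieces of mouse liver tissue, 3 per group, was measured on Affymetrix 3' expression arrays with 45101 probe sets. Per the submitters' processing notes, the authors ran RMA in Expression Console 1.3.1.187 of Affymetrix, which gave the deposited log2 values. This method gives all arrays the same distribution, so a change of most genes in one direction would not show. Groups and piece numbers came from the sample titles. Only the 34958 probe sets with 1 gene symbol in the platform annotation were used, and 9012 of 18194 genes with several were represented by the probe set with the highest mean over the 9 arrays. Near-identical genes may share signal. Tests were limited to genes brighter than the 40th percentile on 3 or more of the 9 arrays.

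Tumor minus adjacent-labelled liver was fitted with limma 3.58.1 in R 4.3.3 (lmFit and eBayes, 1 mean per group over all 9 arrays, 6 residual degrees of freedom) and adjusted by Benjamini-Hochberg over 13888 genes. Only 3 arrays per group limit the precision. Without detection calls, dim levels may be background. On simulated data for this comparison, with 13888 genes, 50% of changes of 1, 98% of 1.5 and 100% of 2 and 4 were called, and 0 unchanged genes. The share at 1 follows from the limit, which has the same size. The simulated noise was the spread between pieces, so it gives no rate of false calls between animals.

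The comparison, the 56 gene lists (1096 genes) and the tests were chosen with earlier results of these data known, so lists are described by counts and medians, with no test. Named genes were the 20 largest called increases and decreases without overlap, fixed marker genes and up to 5 called members of each list, the 10 called genes with the widest spread among tumor pieces, and Sart1, Ccl5, Hif1a, Epas1, Afp, Gpc3 and Igf2. Cyp2c39, Cyp2c68, Cyp2c70, Hmgcs1, Bbc3, Gadd45a and the genes nearest the limit were named after their values were seen. Chromosomes came from the RefSeq gene table of GRCm38.p6. Alternatives covered the threshold, filter, probe set rule, normalization, variance model, groups fitted, replicate block and each array left out.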

Additional observations from a re-analysis of the deposited data

How the results depend on the processing

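The counts of 292 higher and 408 lower genes became 2794 and 3480 with the adjusted p alone, where Sart1 (-0.627, adjusted p = 4.89e-06) also passed. In every other alternative they stayed within 1.5 times, at 250 and 317 with the mean of probe sets and 374 and 472 with the most variable probe set at the extremes. Sart1 was at -0.41 with the mean of probe sets. The median of chromosome 8 moved from -0.35 to -0.209 with no filter, -0.431 with a filter at the 60th percentile and -0.282 with the mean of probe sets, staying below 0. Leaving out 1 array at a time gave 289 to 299 higher genes, 382 to 443 lower, -0.643 to -0.609 for Sart1 and -0.381 to -0.323 for chromosome 8. No named gene changed its sign past the threshold. Calls ended without 1 array for Derl3, Dhcr7, G0s2, Rgn, Tfrc, Cidea, Col4a1, Hamp, Vnn1, Lcat, Rian, Apcs, Ecm1 and Rora. Calls were gained in the same way for Glul, Cyp2e1, Elovl3, Dlk1, Gpnmb, Tff3, Klb, Otc, Ppara, Dbp and Slc2a1. Glul was at -1.23 without tumor piece 1, Cyp2e1 at -1.33 and Elovl3 at -1.46 without adjacent piece 2. Dlk1 was at 1.33 without tumor piece 2. With the mean of probe sets 20 of the named genes lost their call, among them Egfr, Fdps, Hsp90b1, Igf2r, Masp1, Mcm6, Meg3, Nudt7, Pdia6, Sgce and Socs2. Apob and Igf1 gained a call there, at 1.08 and -1.14. The median of the imprinted genes became -0.19 with the 60th percentile filter, -0.142 with the mean of probe sets and -0.155 with the most variable one. That of fatty acid synthesis became 0.0415 with the mean of probe sets and -0.0647 without tumor piece 3, and that of the cell cycle genes -0.176 without adjacent piece 1. The cause was not tested. Piece numbers did not pair the tissues: the deviations of tumor and adjacent pieces with the same number correlated at 0.0885, 0.0613 and 0.0397. With the replicate number as a block 292 genes were higher and 407 lower, and Sart1 was at -0.627 (adjusted p = 0.000601).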
